A study of Mus musculus with 8 samples.

Results

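The Sox17-positive epithelial endoderm described here is a class of 248 cells out of 7618 in 2 single-cell RNA libraries of mouse embryoid bodies, 35 cells in the library labelled wild type (WT) and 213 in the library labelled Tet-triple knockout (TKO). Members were chosen by their own counts of unique molecular identifiers (UMIs, each standing for 1 captured RNA molecule). A cell had to hold at least 2 UMIs of Sox17, at least 1 UMI of Epcam or Cdh1, no UMI of Cdh5 and at most 15% of its UMIs from mitochondrial genes. Epcam and Cdh1 encode epithelial adhesion proteins, and Cdh5 encodes the cadherin of endothelial junctions. Because these values chose the members, the levels of Sox17, Epcam, Cdh1 and Cdh5 are given as description.

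The series addresses how TET proteins, which oxidise 5-methylcytosine in DNA, bear on the path of embryonic stem cells toward the heart. Both libraries came from day 5 of differentiation of E14-NKX2-5-EmGFP cells, a mouse embryonic stem cell line with a green fluorescent reporter of the cardiac gene Nkx2-5. These cells were kept on mouse embryonic fibroblast feeders with leukemia inhibitory factor (LIF), which was then withdrawn, and they formed aggregates in hanging drops that grew on in non-adhesive dishes with no further treatment. The 2 groups differ in genotype, wild type against Tet-triple knockout, with 1 library each, and the number of knockout clones is not given in the sources used here. A difference between the libraries therefore has no replicate check, and genotype, clone and library cannot be told apart.

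Definitive endoderm arises at gastrulation when epiblast cells pass through the primitive streak under Nodal signalling, switch on Eomes, Foxa2 and Sox17, and form the epithelium of the gut tube. The visceral endoderm is an older, extraembryonic epithelium that surrounds the epiblast, takes up nutrients and secretes carriers such as transthyretin (Ttr) and apolipoproteins. It also expresses Sox17, Foxa2, Epcam and Cdh1, so the choosing rule does not by itself separate these lineages. Sox17 is also made by arterial endothelium together with its relatives Sox7 and Sox18, and the absence of Cdh5 keeps such cells out.

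In the RefSeq annotation of GRCm38.p6, the Sox17 gene lies at chr1:4490928-4497426. Short stretches beside a transcript start of Cyp26a1 and of Cer1 are shown because their letters match binding motifs of retinoic acid receptors and of FOXA factors. The summed counts of both genes also stood high in the TKO members, though 96 of the 131 Cer1 UMIs lay in 1 cell. Each run has 30 bases, written 5′ to 3′ along the strand of its gene, with the matching letters in capitals. The Cyp26a1 run is chr19:37697770-37697799 on the plus strand and the Cer1 run is chr4:82885225-82885254 on the minus strand.
Cyp26a1: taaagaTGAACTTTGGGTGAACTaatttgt
Cer1: gtggGCAAACActtaatgTGTTTGCtttgc
In Cyp26a1, which encodes an enzyme that degrades retinoic acid, the capitals are the direct repeat of retinoic acid receptors, AGTTCA followed after a gap of 5 bases by another AGTTCA, read on the opposite strand 32 to 16 bases before the transcript start that the RefSeq window uses. The gene's annotated span begins upstream of the run, at 37697738, so the run lies inside the annotated gene and not before its first start. This repeat was found on either strand in 7 of 32851 RefSeq windows of 250 bases before a transcript start, or 0.0213%. In Cer1, which encodes a secreted antagonist of Nodal, BMP and Wnt ligands, the capitals are a pair of FOXA letters TGTTTGC, 1 on each strand, between 99 and 79 bases before the start. FOXA letters, TGTTTAC or TGTTTGC on either strand, were found in 7.29% of the windows.

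Among the 15 genes that stood highest in the TKO members by the rule described below, 13 had a RefSeq window. The SOX core ACAAT was found in 3 of the 13 (Sgk1, Gas6 and Lpar1), beside 30.9% of the 27025 genes of the table. A gene can have several windows, and a match in any of them was counted. FOXA letters were in none of the 13, beside 8.22% of genes. The OTX letters TAATCC were in 1 of the 13, Sgk1, beside 7.21% of genes, and the GATA letters AGATAA were in 1, again Sgk1, beside 11.4%. All were searched on both strands, and a match in these letters is a description of the sequence.

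The targeted genes were read first. The part of each Tet gene that was deleted is not given in the sources used here, so counts of transcript tags do not check the knockout. Tet1 stood at 34.4 CPM (counts per 1000000, the UMIs of a gene summed over the class relative to all UMIs of the class) in the WT members and 15.4 CPM in the TKO members. Tet2 stood at 5.29 and 3.01 CPM and Tet3 at 26.4 and 19.6 CPM. The TKO to WT ratios were 0.449 (0.236 to 0.913) for Tet1, 0.569 (0.114 to 5.5) for Tet2 and 0.740 (0.372 to 1.63) for Tet3. Brackets hold exact 95% intervals throughout, which cover counting error only and not the spread between cultures.

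After the mitochondrial limit 4392 WT and 3197 TKO cells were kept, with medians of 7849.5 and 9679 UMIs. Members held a median of 8942 UMIs and 2472 genes in WT and 11631 UMIs and 3176 genes in TKO, and mitochondrial genes gave a median of 3.87% and 4.08% of their UMIs. Ribosomal protein genes gave 34.6% and 28.3%. Sox17 was not found in any of 260 erythroid (globin-rich) or 27 contractile (cardiac muscle gene-rich) WT cells, nor in 8 erythroid and 207 contractile TKO cells. For the WT erythroid and the TKO contractile cells, whose median depths were 8811 and 9181 UMIs, 3 cells would be 1.15% and 1.45%, the shares that a count of 0 allows. This limits cells with a Sox17 UMI at these depths, not cells that express Sox17. A doublet caller marked 3 WT cells, 1 TKO cell and no member, too few to be informative, so the results were also computed without the 3 WT and 19 TKO members above 20000 UMIs. The table headers name 21 barcodes in both libraries.

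Members made up 0.797% (0.556 to 1.11) of WT cells and 6.66% (5.82 to 7.58) of TKO cells. Epithelial cells as a whole, those with a UMI of Epcam or Cdh1, were 6.81% of WT and 47.3% of TKO cells. Within the epithelial cells the members were 35 of 299 in WT, or 11.7% (8.29 to 15.9), and 213 of 1513 in TKO, or 14.1% (12.4 to 15.9). Thus the shares of all cells did not overlap, and the shares of epithelial cells did.

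The depth of the libraries differed, and a rule that asks for UMIs reads depth. When each cell was thinned to 6000 UMIs, leaving out 1077 WT and 475 TKO shallower cells, members were 0.573% of WT and 3.97% of TKO cells. Of the epithelial cells they were then 9.74% (5.97 to 14.8) in WT and 9.18% (7.59 to 11) in TKO. The difference between the libraries in the share of all cells remained after thinning, and the order within epithelial cells was not resolved.

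**Figure D1:**
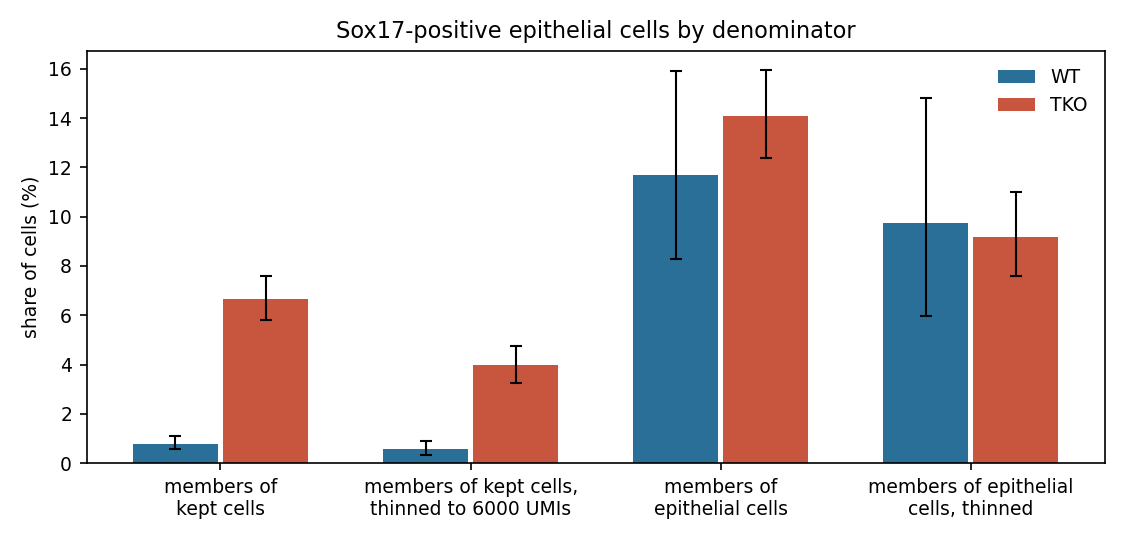
Share of cells that were Sox17-positive epithelial cells in the WT (blue) and TKO (red) library, in percent, with exact 95% binomial intervals as error bars. The 2 pairs of bars on the left take all kept cells as denominator, unthinned and thinned to 6000 UMIs per cell, and the 2 on the right take epithelial cells. TKO is above WT on the left (6.66% against 0.797% unthinned), and the intervals overlap on the right.

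The libraries also differed in what else expressed Sox17. Of cells with at least 2 Sox17 UMIs, members were 35 of 62 in WT (56.5%, 43.3 to 69.0) and 213 of 230 in TKO (92.6%, 88.4 to 95.6). The others with a Cdh5 UMI, taken as endothelial, numbered 24 in WT and 5 in TKO. The remaining 3 WT and 12 TKO cells held neither Cdh5 nor an epithelial gene. Sox17 stood at 304 CPM (251 to 365) in the WT members and 351 CPM (329 to 374) in the TKO members. Per cell, Sox17 ran from 2 to 10 UMIs in WT and from 2 to 21 in TKO, with a median of 3 in both. Epcam was found in 100% of WT and 98.1% of TKO members and Cdh1 in 45.7% and 70.4%.

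To see what else marks these cells, the TKO members were compared with 1143 TKO epithelial cells that held no Sox17 and no Cdh5 UMI, called Sox17-zero cells below. Only genes with at least 20 UMIs in both classes together were compared. Of 11773 such genes, 2.74% were at least 2-fold higher in the members and 6.51% at least 2-fold lower. Genes were named as the 15 highest and 10 lowest ratios among those with at least 50 CPM in the higher class. As 1 library holds both classes, the ratios describe these cells and carry no test.

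The highest genes held proteases, secreted signals and receptors. Ctsc, the lysosomal dipeptidyl peptidase that activates serine proteases, stood at 95.5 CPM in the TKO members and 12.0 CPM in the Sox17-zero cells, a ratio of 7.95 (6.49 to 9.75). Ctsh, a lysosomal cysteine protease, stood at 253 and 54.0 CPM, a ratio of 4.68 (4.21 to 5.21). Tmprss2, a serine protease of the cell surface, stood at 58.3 and 16.9 CPM, a ratio of 3.44 (2.79 to 4.24). These were among the genes that came with the class as its markers, so their place in the list is not independent of its choice. Spink1, a secreted trypsin inhibitor, stood at 961 and 209 CPM, a ratio of 4.59 (4.35 to 4.85).

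Signalling genes formed the other large group. Dkk1, a secreted Wnt antagonist, stood at 95.5 CPM in the TKO members and 17.8 CPM in the Sox17-zero cells, a ratio of 5.38 (4.49 to 6.45). Cyp26a1 stood at 229 and 44.9 CPM, a ratio of 5.10 (4.55 to 5.72). Trh, the precursor of thyrotropin-releasing hormone, had the highest level of the 15, 2425 against 639 CPM, a ratio of 3.80 (3.68 to 3.92). Receptors and ligands were among the rest. Flt1, a receptor of vascular endothelial growth factor, had a ratio of 5.21, and Gas6, the ligand of the TAM receptor kinases, 3.49. The parathyroid hormone receptor Pth1r had 3.11 and the lysophosphatidic acid receptor Lpar1 2.99. The transcriptional cofactor Cited1 (4.79), the kinase Sgk1 (4.74), the complement regulator Cd55 (3.28) and the lactate transporter Slc16a1 (3.10) completed the 15.

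These genes were not uniform among the TKO members. Slc16a1 was found in 98.6% and Trh in 88.3% of the cells, whereas Cyp26a1 was found in 51.2%, Ctsh in 52.1%, Ctsc in 36.6%, Tmprss2 in 32.4% and Dkk1 in 31.9%. Per cell, Trh ran from 0 to 175 UMIs with a median of 16, and Cyp26a1 from 0 to 55 with a median of 1. TKO contractile cells, taken here as a background, held a Trh UMI in 14.5% of cells, Cyp26a1 in 5.31% and Ctsh in 13.0%. They held Ctsc in 5.80%, Tmprss2 in 0.483% and Dkk1 in 14.5%, at a median of 9181 UMIs. Thinned to 4000 UMIs, Trh was found in 80.5% of TKO members and 6.09% of contractile cells, Cyp26a1 in 35.7% and 2.03%, Ctsh in 37.6% and 7.11%, Ctsc in 21.9% and 2.54%, Tmprss2 in 17.6% and 0.508% and Dkk1 in 18.1% and 5.58%. All 6 shares were above this background, before and after thinning. Cyp26a1, Ctsh, Ctsc and Tmprss2 came with the class as markers, and Trh and Dkk1 were named for high ratios, so this order is not independent of their choice. TKO epithelial cells with at least 5 Trh and fewer than 2 Sox17 UMIs were closer, with unthinned shares of 37.2% for Cyp26a1, 27.9% for Ctsh, 15.2% for Ctsc, 18.0% for Tmprss2 and 13.6% for Dkk1. Dkk1 was found in 10.5% of Sox17-zero cells, so contractile cells are no clear background for it.

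Endoderm transcription factors were higher as a group. Of 20 listed, 15 could be compared, and 6 were at least 2-fold higher and none at least 2-fold lower, with a median log2 ratio of 0.88 beside -0.01 over all genes. Eomes, the T-box factor upstream of definitive endoderm, stood at 34.2 against 6.05 CPM, a ratio of 5.66 (4.15 to 7.74). Foxa2, a pioneer factor of endoderm, stood at 99.3 against 34.2 CPM, a ratio of 2.90 (2.48 to 3.38), and was found in 126 of the 213 TKO members. Foxa3 (2.84), Hhex (2.61) and Lhx1 (2.56) were also past 2-fold. Otx2, a factor of the anterior epiblast and anterior endoderm, was higher by less, at 250 against 139 CPM or 1.81-fold (1.65 to 1.97).

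Lists of endoderm territories overlapped in their genes. Of the definitive endoderm list 9 of 20 genes were at least 2-fold higher and none at least 2-fold lower (median log2 ratio 0.90). These included Emb, which encodes the adhesion protein embigin and stood at 3143 against 1459 CPM (2.15-fold). They also included Ctsc, Tmprss2 and Cyp26a1, which came with the class as markers. The count for this list is therefore not independent of how the class was chosen. Of the anterior visceral endoderm list 5 of 8 were at least 2-fold higher (median 1.37), Dkk1, Cer1, Hhex, Lhx1 and Lefty1. Cer1 stood at 49.3 against 4.08 CPM, but 96 of its 131 UMIs lay in 1 cell and 123 in 5 cells. That cell also held 175 UMIs of Trh, 18 of Otx2 and 4 of Foxa2. The Cer1 ratio of 12.1 (8.73 to 16.9), which was 18.3 without cells above 20000 UMIs, therefore describes few cells.

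Of the visceral endoderm list 10 of 12 genes were at least 2-fold higher (median log2 ratio 2.28). They included Apom (5.12-fold), Dab2 (6.83-fold) and Spink1. Cubn, of the same list, was found in 0 of 1143 Sox17-zero cells. Its 39 UMIs in the members, 37 of them in 2 cells, alone brought it into the comparison, so it could only be higher. Of the 35 Apom UMIs in the TKO members, 27 lay in 1 cell. The comparison was repeated without cells of at least 5 Ttr UMIs in either class, a split chosen after the values were seen, which left 198 members and 1113 Sox17-zero cells. Then 9 genes of the list could be compared, of which 2 were at least 2-fold higher and none at least 2-fold lower (median 0.41), beside 2.6% and 6.76% of 11722 genes. Dab2 was 1.33-fold (0.661 to 2.47) and Ttr 1.45-fold (0.976 to 2.10) higher, neither resolved from even, where Ttr had been 2.73-fold higher over all members. Apom had 2 UMIs left in the members and a ratio of 0.520 (0.0589 to 2.14), and with a Sox17 minimum of 3 over all cells its ratio was 0.453. Spink1 kept a ratio of 4.67 (4.38 to 4.98). The endoderm transcription factors (6 of 15, median 0.94), definitive endoderm (9 of 20, median 0.96) and anterior visceral endoderm (5 of 8, median 1.44) lists moved little. The definitive endoderm list still held Ctsc, Tmprss2 and Cyp26a1, markers given with the class.

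Epithelial adhesion and polarity genes leaned upward by little. Although the Sox17-zero cells had also been chosen for Epcam or Cdh1, 24 of 27 such genes had a ratio above 1, where 48.8% of all genes did. None reached 2-fold higher, 1 was at least 2-fold lower (Lgals3, on 2 UMIs in the members), and the median log2 ratio was 0.52. The tight junction gene Cldn7 had a ratio of 1.92 and the keratin gene Krt8 1.65. Of the lysosome and cathepsin list 3 of 26 genes were at least 2-fold higher, Ctsc, Ctsh and the asparaginyl endopeptidase Lgmn (2.56-fold), and none at least 2-fold lower, with a median of 0.44. Of the protease and inhibitor list 3 of 23 were at least 2-fold higher, Spink1, Tmprss2 and the dipeptidyl peptidase Dpp4 (7.15 against 1.21 CPM), and 2 at least 2-fold lower. Over all 11773 genes 2.74% were at least 2-fold higher and 6.51% at least 2-fold lower. Ctsc, Ctsh and Tmprss2 came with the class as markers, so the counts of these 2 lists are not independent of how it was chosen.

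The lowest genes in the TKO members included several of pluripotent cells. Pou5f1, which encodes Oct4, stood at 10.9 CPM in the TKO members and 224 CPM in the Sox17-zero cells, 20.5-fold (14.3 to 30.7) lower, and was found in 18 of 213 members. Utf1, a chromatin protein of embryonic stem cells, stood at 2.26 against 71.3 CPM, and Dppa5a, an RNA-binding protein of the same cells, at 14.3 against 124 CPM. Sox2 stood at 22.6 against 62.6 CPM. The others of the 10 were Pim2, a survival kinase, the retinoic acid carrier Crabp2, the chaperone Clu, Ssbp2, Klf2 and Ppp1r1a, with ratios from 0.0751 to 0.328.

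The core and formative pluripotency list split. Of 15 genes 8 were at least 2-fold lower and 1 at least 2-fold higher, with a median of -1.14. The gene above 2-fold was Fgf5, a growth factor of the formative epiblast, at 73.3 against 29.4 CPM (2.49-fold, 2.09 to 2.97). Dnmt3b, the de novo DNA methyltransferase of the epiblast, was close to even at 309 against 279 CPM (1.11-fold, 1.02 to 1.19). Its relative Dnmt3a stood at 18.4 against 39.0 CPM and was the 1 gene at least 2-fold lower among 12 of DNA methylation.

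Genes of mesenchyme and of mesoderm were lower as well. Of 12 mesenchymal genes 8 were at least 2-fold lower and none at least 2-fold higher (median -1.72), among them Zeb2 (2.26 against 18.8 CPM), Snai2 and Twist1, repressors of epithelial genes. T, the Brachyury gene of the primitive streak, stood at 2.26 against 18.3 CPM. Of 10 contractile genes 5 were at least 2-fold lower, among them Tnnt2 (3.76 against 29.0 CPM), and 1, Myl3, was higher at 41.4 against 19.6 CPM. Of 11 genes of cardiac and lateral mesoderm 6 were lower and 1, Tbx3, was higher at 36.5 against 17.8 CPM. Proliferation genes leaned down by little. Of 20 cell cycle genes 2 had a ratio above 1 and 2 were at least 2-fold lower (median -0.29), and Top2a stood at 121 against 192 CPM.

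Signalling pathways showed single members rather than whole lists past 2-fold. Of 26 Wnt genes 3 were at least 2-fold higher, Dkk1 and the receptors Fzd5 (3.58-fold) and Fzd6 (2.11-fold), and 4 at least 2-fold lower, with a median log2 ratio of 0.00. Of 12 Nodal genes 2 were at least 2-fold higher, the antagonists Cer1 and Lefty1, and Lefty1 rested on 8 UMIs. Of 14 retinoid genes 1 was at least 2-fold higher, Cyp26a1, which came with the class as a marker. In the same list 4 were at least 2-fold lower, including Crabp1 and Crabp2. The receptors Rara (35 against 34.1 CPM) and Rarb (30.5 against 32.7 CPM) were even. Of 17 FGF genes 1 was at least 2-fold higher and 2 at least 2-fold lower, of 18 BMP genes 1 higher (Bmp2, 2.47-fold) and 3 lower, of 14 Hedgehog genes 1 higher and 4 lower, and of 13 Notch genes none higher and 2 lower. Sox21 was the Sox gene past 2-fold on the upper side, at 35.7 against 11.1 CPM.

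Endothelial genes were low or at 0 in the members. Cdh5 was absent from the members and present in the endothelial cells by the rules that chose them. Sox7, Sox18, Tek and Tie1 were at 0 UMIs in the members of both libraries, and Kdr was at 0 UMIs in WT and 2 in TKO. A count of 0 allows up to 7.93 CPM in the WT and 1.13 CPM in the TKO members, at 3 counts per class. The 24 WT endothelial cells held 8 UMIs of Sox7, 4 of Sox18 and 106 of Kdr. Summed over the 16 genes of the endothelial list the members stood at 185 CPM in WT and 159.8 in TKO, of which Flt1 gave 79.3 and 51.1, beside 4213 and 4831 CPM in the endothelial cells. Cxcr4, a chemokine receptor used to sort definitive endoderm, was found in 26 of 213 TKO members (12.2%) and none of 35 WT members. Thinned to 4000 UMIs the shares were 4.29% (1.98 to 7.98) in TKO and 0 of 35 in WT, with an interval up to 10.0%, so the difference was not resolved. TKO epithelial cells with at least 5 Trh and fewer than 2 Sox17 UMIs held it in 11.8%.

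The same comparison within the WT library shares no cell with the TKO one. The WT members were set against 222 WT Sox17-zero cells, with 7972 genes compared, of which 5.13% were at least 2-fold higher and 10.7% at least 2-fold lower. All 15 genes named as highest in TKO also had a ratio above 1 in WT, as 43.9% of genes did, and 10 of them were at least 2-fold higher. The 15 include Ctsc, Ctsh, Tmprss2 and Cyp26a1. These came as markers of the class in both libraries, so their WT ratios are not independent of its choice. All 10 genes named as lowest in TKO had a ratio under 1 in WT, as 56.1% of genes did, and 9 of them were at least 2-fold lower. Pim2 was the exception, at 0.733 (0.140 to 2.44).

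Sizes of the ratios differed between the libraries for several genes. The genes were picked for high ratios in TKO, which favours smaller ratios in WT. The compared classes differed as well. At least 5 Ttr UMIs were held by 110 of 222 Sox17-zero cells in WT (49.5%) and 30 of 1143 in TKO (2.62%). The part of these cells in the ratios was not tested. Ctsc stood at 79.3 against 40.3 CPM in WT, a ratio of 1.97 (1.25 to 3.02) where the TKO interval began at 6.49. Dkk1 had a WT ratio of 3.00 (1.62 to 5.41), Spink1 2.64 (2.53 to 2.75) and Trh 2.50 (1.81 to 3.41). Cyp26a1 had 2.69 with an interval from 0.917 to 7.11, on 7 UMIs in the members. Gas6, at 1.14 (0.774 to 1.63), was not resolved from even.

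**Figure D2:**
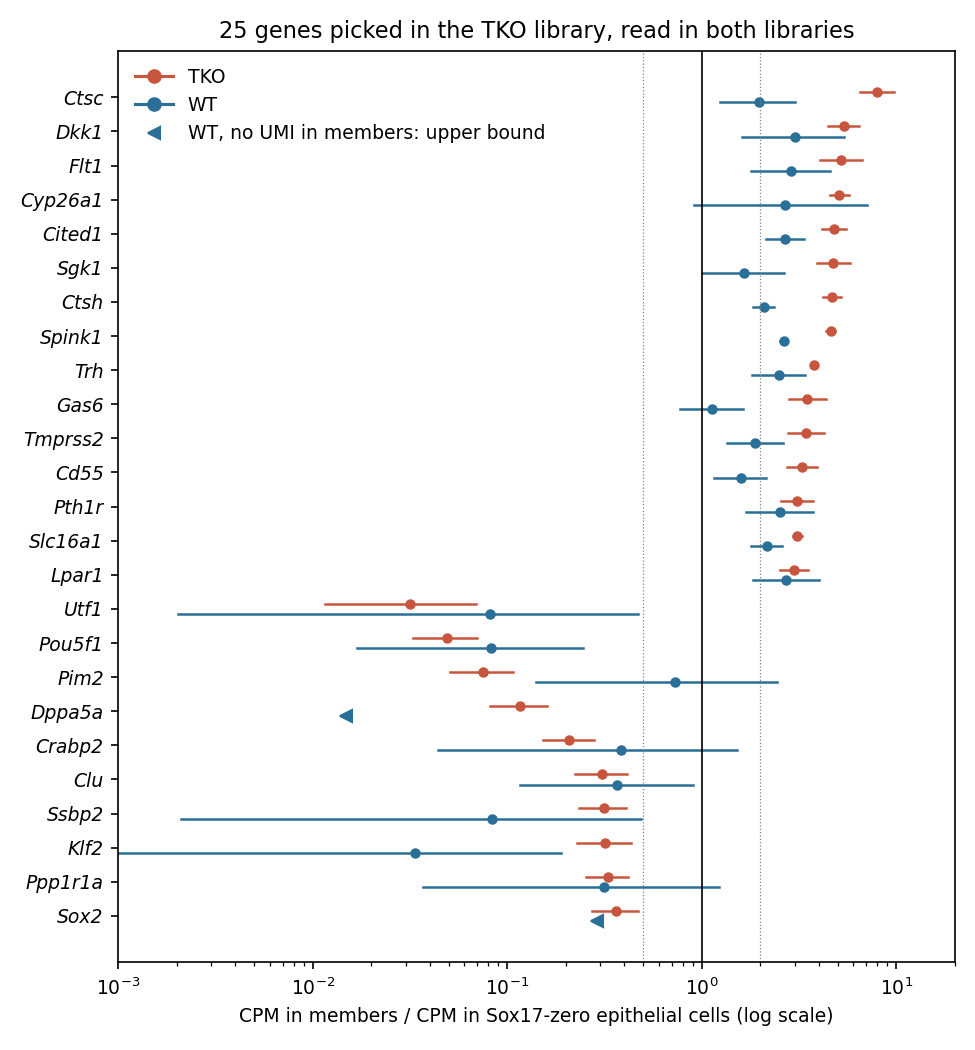
Ratio of CPM in the members to CPM in the Sox17-zero epithelial cells on a log axis for the 15 highest and 10 lowest genes of the TKO library, in TKO (red) and WT (blue), with exact 95% intervals as lines (that of Klf2 in WT runs past the axis) and triangles for upper bounds where the WT members held no UMI. The dotted lines mark 2-fold either way. All 25 genes lie on the same side of 1 in both libraries, and the TKO point lies farther from 1 than the WT point for each of the 15 upper genes. The 15 were picked as the highest in TKO, so their choice favours this order.

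In WT, too, endoderm lists were high. Of 13 endoderm transcription factors 6 were at least 2-fold higher and 1 lower (median log2 ratio 0.92 beside -0.08 over all genes), with Foxa2 at 84.6 against 35.9 CPM, a ratio of 2.35 (1.5 to 3.61), and Gata4 at 84.6 against 33.5 CPM. Of 13 visceral endoderm genes 9 were higher and 1 lower (median 1.05), and these levels were large. Spink1 stood at 8294 against 3146 CPM, Ttr at 5902 against 3120 and Apoe at 4913 against 1824. Of 24 lysosomal genes 6 were higher and 1 lower, with Ctsl at 1240 against 499 CPM. Ctsh, given with the class as a marker, was among the 6. Of 12 mesenchymal genes 10 were lower, and of 11 blood genes 8 were lower. The WT Sox17-zero cells held 3516 CPM of the embryonic globin Hbb-bh1 and the WT members 386. The part of erythroid RNA in the WT ratios was not tested.

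Set against the name of the class, Foxa2, Ctsc, Ctsh and Tmprss2 were above the Sox17-zero cells in both libraries, and Cyp26a1 was above in TKO and not resolved from even in WT. The last 4 came with the class as its markers and are not independent of its choice, while the WT members also carried high levels of visceral endoderm genes. These levels do not go against the name endoderm, and the choosing rule does not tell definitive from visceral endoderm.

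Between the libraries, the members were close in Foxa2 and differed in other genes. Sox17 was required of both by the rule. Of 8545 genes compared, 16.5% were at least 2-fold higher in the TKO members and 6.18% at least 2-fold lower, with a median log2 ratio of 0.26. Of the genes past 2-fold 72.7% were thus higher in TKO. This split was 52.7% with the median log2 ratio set to 0, a shift that lowers each TKO to WT log2 ratio by 0.26, and 62.4% with totals that leave out mitochondrial and ribosomal protein genes. Foxa2 stood at 99.3 CPM in TKO and 84.6 in WT (ratio 1.17, 0.812 to 1.75) and was found in 59.2% and 60.0% of cells. Gata6 stood at 79.4 and 84.6 CPM, Hhex at 99.7 and 71.4 CPM, Foxa1 at 44.4 and 39.6 CPM and Ctsc at 95.5 and 79.3 CPM. The intervals of these 5 ratios all contained 1.

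The genes highest in the TKO members were led by Stmn2, Otx2, Trh and Cyp26a1. Otx2 stood at 250 CPM in TKO and 15.9 CPM in WT, a ratio of 15.8 (7.22 to 43.2), and was found in 154 of 213 TKO and 2 of 35 WT members. Trh stood at 2425 and 161 CPM, a ratio of 15.0 (11.7 to 19.7). Cyp26a1 stood at 229 and 18.5 CPM, a ratio of 12.4 (5.97 to 30.9). Stmn2, a tubulin-binding protein best known from neurons, had 383 UMIs in TKO and none in WT, at least 18.2-fold higher. The Wnt receptor Fzd2 (10.0), the cytokine signalling inhibitor Socs2 (9.07), Sox11 (4.66), Fmr1nb (4.45), the Nodal corepressor Tgif1 (4.26) and Sox4 (4.21) followed. Of 19 Wnt genes 9 were at least 2-fold higher in TKO and 1 at least 2-fold lower, and of 7 anterior visceral endoderm genes 5 were higher and none lower, among them Gsc at 32.0 and 2.64 CPM and Lhx1 at 59.8 and 18.5 CPM. Of 7 Sox genes 5 were higher and none lower, and of 11 foregut genes 6 were higher and 1, the gut hormone gene Pyy, lower at 3.76 CPM in TKO and 132 in WT. Over all 8545 genes 16.5% were at least 2-fold higher and 6.18% at least 2-fold lower. The WT members hold 378350 UMIs in all, so several of these genes rest on 0 to 3 WT UMIs. Stmn2 and Sox2, the latter of the foregut list, had no UMI in the WT members. Such genes reached the minimum of 20 UMIs through their TKO counts alone and could not be called lower. The list counts are therefore not independent of that minimum.

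The genes highest in the WT members included carriers of nutrients and 4 globins. Rbp4, the carrier of retinol, stood at 1499 CPM in WT and 6.39 in TKO, 234-fold (145 to 405) higher in WT. Ttr stood at 5902 and 132 CPM, 44.8-fold (40.0 to 50.3) higher. Apom, an apolipoprotein, stood at 856 and 13.2 CPM, and S100g, a calcium-binding protein of absorptive epithelia, at 1951 and 47.0 CPM. These genes were widespread in WT, where Ttr was found in 32 of 35 cells, from 0 to 197 UMIs with a median of 61. In TKO Ttr was found in 40 of 213 cells, from 0 to 62 with a median of 0. Slc13a4, a sulfate transporter, and Lgals2, a galectin, were also among the 10.

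Of the visceral endoderm list, 10 of 13 genes were at least 2-fold lower in TKO and 2 at least 2-fold higher, with a median log2 ratio of -3.22. Hnf4a, a nuclear receptor of absorptive endoderm, stood at 29.1 CPM in WT and 0.752 in TKO, and Gata4 at 84.6 and 15.0 CPM. Lysosomal genes were lower in 9 of 25 cases past 2-fold and higher in 1, with Lgmn at 452 CPM in WT and 80.9 in TKO. Ctsh stood at 996 and 253 CPM and Tmprss2 at 137 and 58.3 CPM. Thus 2 of the 4 given markers apart from Sox17 were lower in TKO, Cyp26a1 was higher, and Ctsc was not resolved from even.

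The remaining 4 of the 10 genes highest in WT were globins, Hbb-y, Hbb-bh1, Hba-x and Hba-a1. Hbb-bh1 was found in 27 of 35 WT members, from 0 to 100 UMIs with a median of 1, and in 7 of 213 TKO members with at most 1 UMI. It was also found in 68.9% of WT Sox17-zero cells and in 63.0% of the 27 WT contractile cells, which should lack it, beside 77.1% of the WT members, and in 1.93% of TKO contractile cells beside 3.29% of the TKO members. The WT epithelial cells with at least 10 Ttr UMIs and fewer than 2 of Sox17 stood at 282 CPM of Hbb-bh1, beside 386 in the WT members. Summed over 15 blood genes the members stood at 1372 CPM in WT and 389 CPM in TKO, of which the carbonic anhydrase gene Car2 gave 243 and 368. The red cell regulator Klf1 was at 0 UMIs in the members of both. The WT library held 260 erythroid cells and the TKO library 8, and the part of their RNA in the members' globin counts was not tested.

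**Figure D3:**
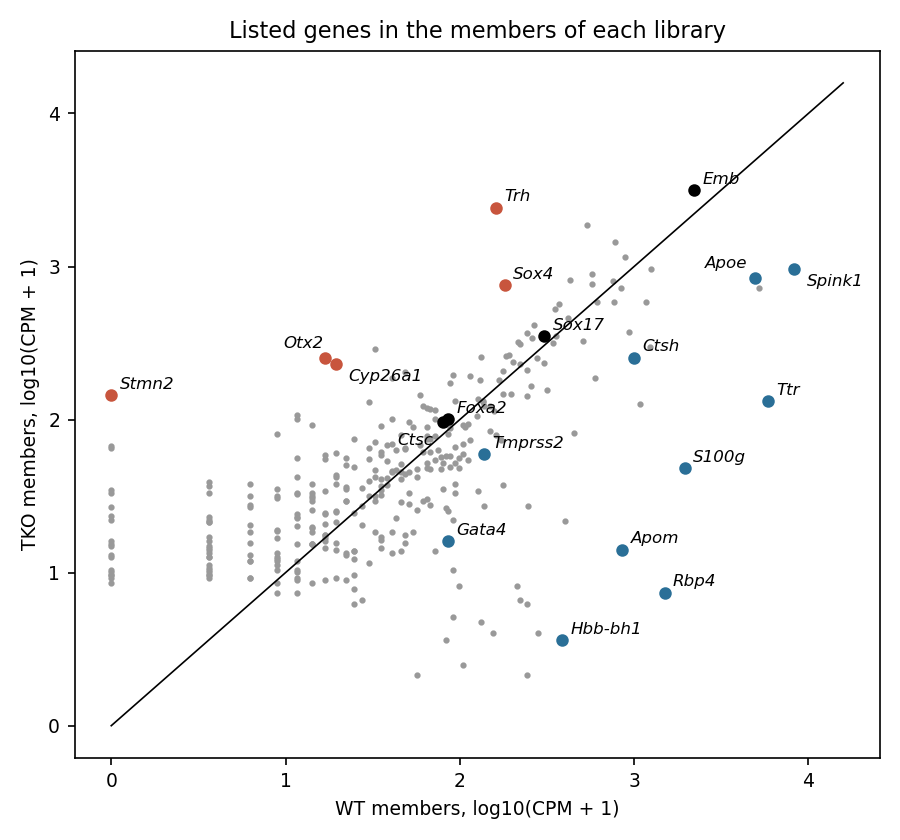
Level of each gene in the WT members (x axis) and the TKO members (y axis), as log10(CPM + 1), for the genes of the lists used here with at least 20 UMIs, and the line of equal levels. Large points carry their gene's name and are red or blue where at least 2-fold higher in TKO or WT, and black within 2-fold. Foxa2 and Ctsc lie near the line, as does Sox17, which the rule required in both, Otx2, Trh and Cyp26a1 above it and Rbp4, Apom, Ttr and Spink1 below it.

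Imprinted genes and DNA methylation genes differed by gene. The maternally expressed Meg3 stood at 5217 CPM in WT and 725 in TKO and its neighbour Dlk1, paternally expressed, at 211 and 7.15 CPM. Mest stood at 89.9 and 196 CPM. Of 15 imprinted genes 4 were at least 2-fold lower in TKO and 2 higher, beside 6.18% and 16.5% of all 8545 genes compared. Dnmt3b stood at 219 CPM in WT and 309 in TKO, a ratio of 1.41 (1.12 to 1.79), and Uhrf1, which recruits the maintenance methyltransferase, at 29.1 and 64.7 CPM.

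Among the members themselves, most TKO cells held Trh, most WT cells held Ttr, and some cells held both. At 1 UMI or more, Trh was found in 72.5% of the TKO members with Ttr, beside 88.3% of all TKO members. Ttr was found in 81.8% of the WT members with Trh, beside 91.4% of all WT members. In TKO 159 of 213 members held at least 5 UMIs of Trh and 15 at least 5 UMIs of Ttr, 6 held both and 45 neither. In WT 29 of 35 held at least 5 UMIs of Ttr and 4 at least 5 of Trh, 2 held both and 4 neither. Ttr reached 5 UMIs in 2 of 260 erythroid and 1 of 27 contractile WT cells and in none of 8 and 207 in TKO. The limit of 5 was set after the values were seen, and 10 TKO and 2 WT members lay within 3 to 7 Ttr UMIs.

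**Figure D4:**
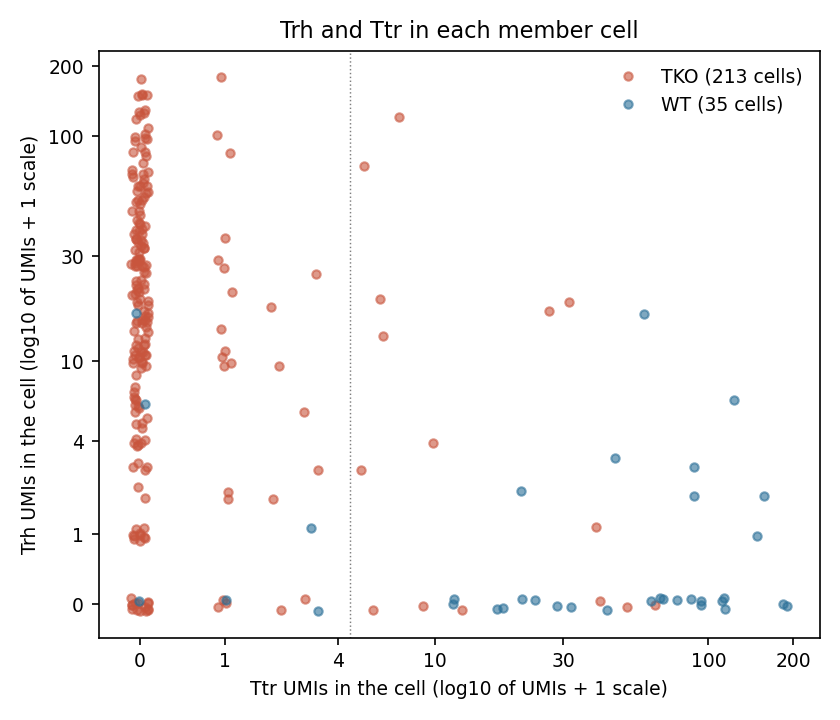
UMIs of Ttr (x axis) and Trh (y axis) in each of the 213 TKO (red) and 35 WT (blue) members, on axes scaled as log10 of UMIs + 1, with points spread slightly for sight, and a dotted line at the split between 4 and 5 Ttr UMIs. Most TKO cells lie at the left with few or no Ttr UMIs and up to 175 of Trh, and most WT cells lie at the right with up to 197 of Ttr.

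The 15 TKO members with at least 5 Ttr UMIs held most of the Apom, Dab2 and Cubn RNA of the class, and not most of its Spink1. They were 7.04% of the TKO members and held 89.4% of their Ttr UMIs, a share that the split itself sets high, 94.3% of Apom, 81.4% of Dab2 (an endocytic adaptor) and 94.9% of Cubn (the receptor cubilin). Of the 2554 Spink1 UMIs they held 756, or 29.6%. Of the 39 Cubn UMIs, 37 lay in 2 cells, and 1 of these also held 27 of the 35 Apom UMIs. Those 2 cells held 29 and 24 UMIs of Dab2 and no UMI of Otx2 or Trh. The whole group of 15 held 0.300% of the Otx2 UMIs, with Otx2 in 2 of 15 cells against 152 of 198 others.

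The split did not run through all marker genes. Ctsc stood at 154 CPM in the 15 cells and 91.4 in the other 198, a ratio of 1.68 (1.08 to 2.51), and Ctsh at 478 and 237 CPM, a ratio of 2.02 (1.59 to 2.54). Few of the 15 cells carried much of both levels. A cell held 10 Ctsc UMIs, and another held 9 of Ctsc and 40 of Ctsh. Foxa2 stood at 120 and 97.9 CPM and Tmprss2 at 68.3 and 57.6 CPM, with intervals that contained 1. Cyp26a1 stood at 28.5 and 243 CPM and Dkk1 at 11.4 and 101 CPM, 8.54-fold (3.64 to 26.4) and 8.91-fold (2.44 to 74.0) lower in the 15. Of 24 lysosomal genes 14 were at least 2-fold higher in the 15 cells and none lower, where 10.5% of 7902 genes were higher and 9.73% lower. Ctsl stood at 1014 and 247 CPM and Lgmn at 513 and 50.3 CPM. Of 16 basement membrane genes 8 were higher and none lower, with the collagen gene Col4a2 at 268 and 58.4 CPM. How far single cells carry these lysosomal and basement membrane levels was not tested. Cubn, Amn and Srgn were each found in only 2 of the 15 cells, so the summed levels need not describe most of them. Of 9 foregut genes none was higher and 7 were lower, with Hhex at 28.5 and 105 CPM.

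With Ttr-holding members alone, 15 TKO against 29 WT cells, the libraries still differed. Of 3231 genes compared, 9.47% were at least 2-fold higher in TKO and 4.92% at least 2-fold lower. Rbp4 stood at 68.3 CPM in TKO and 1725 in WT and Ttr at 1782 and 6856 CPM. Of 13 visceral endoderm genes 9 were at least 2-fold lower in TKO and 3 higher (Cubn, Amn and Lrp2, the last with no WT UMI). Trh stood at 1520.5 and 114 CPM. Of 21 lysosomal genes 1 was at least 2-fold lower and 3 higher, where 9 of 25 had been lower over all members, and Dab2 stood at 325 and 280 CPM. Few cells carry these values, and Cubn and Amn were each found in 2 of the 15 TKO cells.

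The TKO members were also set against the epithelial cells most like them in Trh, 433 TKO cells with at least 5 Trh UMIs and fewer than 2 of Sox17. Trh and Otx2 were close, at 2425 against 2041 CPM and 250 against 227 CPM. Of 10379 genes, 2.53% were at least 2-fold higher in the members and 2.09% at least 2-fold lower. The 6 highest were Fxyd2, a subunit of the sodium pump (7.86-fold), Ctsc (4.32), Dkk1 (3.83), Ctsh (3.64), Cited1 (3.44) and Fgf5 (3.29). The lowest included Pou5f1, at 10.9 against 66.0 CPM, Dppa5a, the pharyngeal endoderm factor Pax9 (21.1 against 68.2 CPM), Igfbp3 and Col2a1. Foxa2 stood 1.85-fold (1.55 to 2.20) higher. Fxyd2 was found in 30 of 213 members, up to 91 UMIs in a cell.

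Against the 19 TKO epithelial cells with at least 10 Ttr UMIs and fewer than 2 of Sox17, the markers were closer. Foxa2 (99.3 against 81.5 CPM), Ctsc (95.5 against 77.2) and Tmprss2 (58.3 against 51.5) had ratios whose intervals contained 1, and Ctsh was lower, at 253 against 450 CPM. The 6 highest in the members were Cyp26a1, Sfrp1, Trh, Flt1, Otx2 and Dkk1, and the 6 lowest Dio3, Ttr, Ifi27l2a, S100g, Npnt and Nepn. The place of Ttr follows from how these cells were chosen. Here 9.25% of 8247 genes were at least 2-fold higher and 6.39% lower. In WT, 35 members against 141 such Ttr cells, 2.32% of 6565 genes were at least 2-fold higher and 5.7% lower. None of 10 endoderm transcription factors and none of 13 visceral endoderm genes was at least 2-fold higher there, and 1 of the 13 was lower.

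Against Sox17-positive endothelial cells the members differed in the genes of both cell types. In TKO the members had Emb at 3143 CPM against 20.4 in 5 endothelial cells and Kdr at 0.752 against 1039.5 CPM. The others of the 6 highest were Cldn6, Trh, Spint2, Krt8 and Spink1, and of the 6 lowest Gngt2, Clec1b, Ctla2a, Dusp2 and Plxnd1, where 19.2% of 6933 genes were at least 2-fold higher and 14.2% lower. Of the genes past 2-fold 57.5% were higher there, and 47.1% with the median log2 ratio set to 0. In WT the 6 highest against 24 endothelial cells were Ttr, Spink1, S100g, Apom, Emb and Rbp4. The 6 lowest were Ctla2a, Klf2, Igf1, Elk3, Igfbp4 and Plvap, the last with 147 UMIs in endothelial cells and none in members, where 14.2% of 3698 genes were at least 2-fold higher and 11.1% lower.

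**Figure D5:**
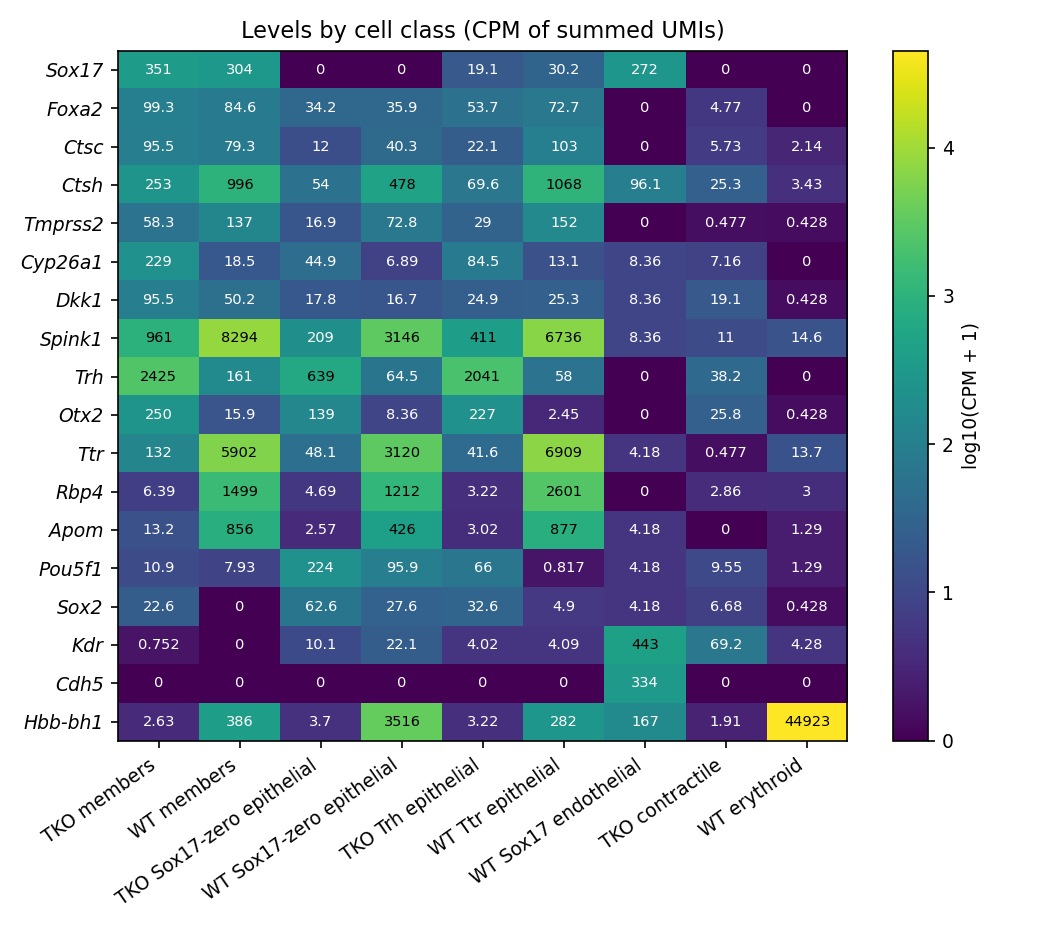
Level in CPM, printed in each box and coloured as log10(CPM + 1), of 18 genes (rows) in 9 classes of cells (columns), each from the library named. The 2 columns of members on the left are close in Foxa2 (99.3 in TKO and 84.6 in WT), the TKO column is high in Trh (2425) and Otx2 (250), the WT column is high in Ttr (5902) and Spink1 (8294), and both are low in Pou5f1 and Kdr. The rules that chose the classes set the Sox17 and Cdh5 values.

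At the threshold of the rule, 76 TKO and 16 WT members held exactly 2 Sox17 UMIs, and 150 TKO and 40 WT epithelial cells just outside held 1. In TKO, Foxa2 stood at 112 CPM just inside and 59.5 just outside, Trh at 1755 and 1299 CPM, Ctsh at 205 and 122 CPM and Pou5f1 at 11.7 and 22.8 CPM. In WT, Foxa2 stood at 93.5 and 64.1 CPM, Ctsc at 140 and 144 CPM and Ctsh at 701 and 1079 CPM. The cells with 1 UMI thus lay between the members and the Sox17-zero cells for these 4 TKO genes, but not for every gene. TKO members were above them in T and Dppa5a, genes in which the members were below the Sox17-zero cells. In WT the cells with 1 UMI were above all members in Ctsc and Ctsh, where the members stood at 79.3 and 996 CPM.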

How the data were processed

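For each of the 2 single-cell libraries the authors deposited a table of raw counts, whole numbers taken here as UMIs, with 27998 gene rows. The submitters' processing notes name Seurat 3 and mm10 and give no role for either. The sources used here do not give the aligner, the chemistry or earlier filters. The TKO header names 3224 barcodes over 3223 columns, so cells were read by position, as were 116 row names that differ between the tables only in a suffix. Depth was 37537946 UMIs in WT and 33602635 in TKO. A cell held 2396 to 44682 UMIs in WT and 2539 to 38227 in TKO. The other 6 samples, which measured 5-hydroxymethylcytosine by pull-down, were not analysed here.

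CPM came from counts summed over a class, and its exact interval from the Poisson distribution. The interval of a ratio is the exact binomial one of the first class's share in both counts, and shares of cells have Clopper-Pearson intervals. A class at 0 was set to 3 counts to give a bound. Genes with at least 20 UMIs in both classes together were compared and called at 2-fold. With 1 library per group no test was made. Erythroid cells had at least 5% of UMIs from 5 globin genes, and contractile cells a UMI in at least 5 contractile genes. Scrublet (scanpy 1.11.5, expected rate 0.06) served as doublet caller. Alternatives used edgeR 4.0.16 TMM factors, other minimums and other classes. The ratio step was tested on simulated data.

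Named genes were the 15 highest and 10 lowest ratios (TKO members against Sox17-zero cells, at least 50 CPM), 10 at either end between libraries (at least 100 CPM) and 6 at either end for other classes. Genes used by the rule, mitochondrial genes, ribosomal proteins and Gm or Rik models were left out. Added to these were up to 3 genes at either end of each of 36 lists and fixed markers. Some genes that the rule names are not reported here. Other genes with a value were chosen after their values were seen. The members and lists were chosen with earlier results of these data known. The splits by Ttr, in 1 or both classes, and the WT comparisons with Ttr and endothelial cells were added after seeing the data. RefSeq windows of GRCm38.p6 were matched by symbol.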

Additional observations from a re-analysis of the deposited data

Results flagged for a closer look

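Mest, an imprinted gene expressed from the paternal copy, differed between members and Sox17-zero cells in opposite directions in the 2 libraries. It stood at 196 CPM in the TKO members and 82.8 CPM in the TKO Sox17-zero cells, a ratio of 2.36 (2.12 to 2.62). In WT it stood at 89.9 and 442 CPM, a ratio of 0.203 (0.140 to 0.286). The difference between these ratios was not tested, since each library is a single one. Mest was found in 63 of 213 TKO members (29.6%), with up to 40 UMIs in a cell, and in 28.7% of the TKO Sox17-zero cells. Thinned to 4000 UMIs these shares were 23.8% and 17.7%. The 20 TKO members with at least 10 Mest UMIs held 421 of the 520 in the class, so the TKO ratio rests largely on few cells. In WT it was found in 19 of 35 members, with up to 5 UMIs in a cell. In the TKO members with at least 5 Ttr UMIs it stood at 17.1 CPM, and in the other TKO members at 208 CPM.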

How the results depend on the processing

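No paired analysis was possible because each group has 1 library, and no library could be left out. The share of members in WT and TKO was 1.71% and 11.4% with a Sox17 minimum of 1 UMI, 0.433% and 4.29% with a minimum of 3, 0.364% and 4.57% with both Epcam and Cdh1 required and 0.274% and 2.56% when thinned to 4000 UMIs. Thinned to 6000 UMIs it was 3.97% in TKO. TKO was above WT in each. The share of genes past 2-fold in TKO members against Sox17-zero cells was 5.66% higher against all other cells, 1.38% lower against cells with 1 Sox17 UMI and 4.13% lower among genes with at least 50 UMIs. In WT 3.00% were higher among genes with at least 50 UMIs. Between the libraries 9.78% were lower with edgeR TMM factors, 10.0% with the median ratio set to 1, and 9.47% higher in members with at least 5 Ttr UMIs. Against endothelial cells 8.95% were lower among genes with at least 50 UMIs and 21.9% without cells above 20000 UMIs. Against Trh cells 3.73% were lower among genes with at least 10 UMIs and 3.52% with a Sox17 minimum of 3, and among genes with at least 50 UMIs 1.19% were higher and 0.625% lower. Against Ttr cells 3.01% were lower among genes with at least 50 UMIs.

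Of the ratios of TKO members to Sox17-zero cells, Apom turned to 0.453 with a Sox17 minimum of 3 and to 0.520 without cells of at least 5 Ttr UMIs in both classes. Leaving such cells out of the members alone gave 0.313 for Apom and 0.309 for Ttr. That filter keeps Ttr-rich cells in the compared class, so it lowers Ttr by construction, and with both classes filtered Ttr was 1.45. Against cells with 1 Sox17 UMI, Dppa5a was 1.61, Nanog 1.01, T 2.03 and Ttr 0.883. Between the libraries, with members of at least 5 Ttr UMIs only, Dab2 was 1.16 and Mest 0.231. The 3 settings on Ttr were chosen after seeing the data. For these, fewer cells entered, and for the others the cause was not tested. In all, 1744 of the recomputed values stayed close to the main ones (a ratio or share within its interval), 326 moved farther and 10 turned direction. Depth limits the ratios of genes that rest on few UMIs in a class, as their intervals show.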
